A study of Oryctolagus cuniculus with 54 samples.

Results

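The first 3 days after preterm delivery were examined in 6 of the 54 lung libraries of a rabbit series, each from a different animal and all read in sequencing run 2. The libraries were chosen by their labels alone: 3 pups called P0 and 3 pups called P3. All were New Zealand White rabbits taken by C-section on day 28 of gestation, ahead of a term of 31 days. P0 pups were kept at 21% oxygen, as in room air, for 1 h, and P3 pups for 3 days, which brought them to the age at which a litter is born at term. The preterm pups lived in incubators without their mother and received a milk replacer through an orogastric tube. The series as a whole followed the rabbit lung through fetal days 20 to 29 (F20 to F29), from term birth on day 31 to day 42 (T31 to T42, pups born naturally and kept with their mothers) and to 7 days after preterm delivery (P7). The study describes the lungs of a time point as coming from pups of different dams, and every P3 value comes from a pup that was alive on day 3.

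Delivery on day 28 puts the rabbit lung in air during its saccular phase, when the airways end in wide sacs with thick walls, type 2 cells are building up surfactant, and most alveoli have still to be divided off. In the days after a birth, lung liquid is cleared, blood flow through the lung rises, surfactant is released into the air spaces, and immune cells settle in the tissue. The question put to these 6 animals is which transcripts change over those days after a preterm birth. It is also whether the same transcripts change over the same ages in the womb up to a term birth, or over the first days after it.

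Messenger RNA of right lung homogenate was measured with a 3′ tag method, in which each transcript is read near its end, so a count stands for transcripts without regard to their length. For F20 and F23 the labels also name the right lung, whereas the study's methods describe whole lungs. A homogenate mixes all lung cells, and fewer cells of a type cannot be told apart from less RNA per cell. The deposited table names its 29587 genes by Ensembl identifier only and does not pair them with symbols, and none of the identifiers was found in the reference table used here. The genes are therefore described by their counts, levels and patterns, 4 of them by identifier, and lung cell markers and pathways were not analysed here. The 6 libraries held between 6930854 and 7707950 counts, inside the range of all 54 libraries (5771693 to 8073755), and between 15574 and 15966 genes had at least 1 count. The 10 most abundant genes took 10.7% to 14.8% of the counts in P0 and 12.1% to 14.7% in P3. Levels are given as CPM, counts relative to the library total, on 1 scale for all libraries after the trimmed mean of M values (TMM) correction of those totals.

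The P0 and P3 lungs differed from each other by more than the animals of either group did. The root mean square difference of log2 CPM over genes was 0.620 to 0.669 for the 3 pairs of P0 pups and 0.592 to 0.620 for the 3 pairs of P3 pups. For the 9 pairs made of 1 P0 and 1 P3 pup it was 0.700 to 0.785. Each pair across the groups thus lay further apart than each pair within a group. The common biological coefficient of variation was 21.0% among P0 and 19.3% among P3 pups. Of 8935 genes with a mean of at least 5 CPM, 96 (1.07%) differed over 4-fold between the highest and the lowest P0 pup, with 0.5 CPM added to each value, and 88 (0.985%) did so among P3 pups. Of these, 3 and 4, respectively, were among the genes called between the groups, where 2.62% of all genes tested were called.

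From P0 to P3, 339 of 12950 genes tested changed (2.62%). A gene was called when its fold change was above 2 and its adjusted p at most 0.05 in the quasi-likelihood test of edgeR, with adjustment by Benjamini and Hochberg over all genes tested. Higher levels at P3 were found for 235 genes (1.81% of those tested) and lower levels for 104 (0.803%), so that 69.3% of the changes were rises. For each of the 235 genes every P3 pup was above every P0 pup, and for each of the 104 every P3 pup was below every P0 pup. Among all genes tested such a separation was seen upward in 12.8% and downward in 12.2%. The scaling of the libraries centres the fold changes, so these counts are relative to the typical gene (median log2 fold change of all genes -0.003). When the same contrast was read from 21 animals of 6 groups with the run in the model, the count fell to 176 genes, of which 151 were higher and 25 lower.

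**Figure D1:**
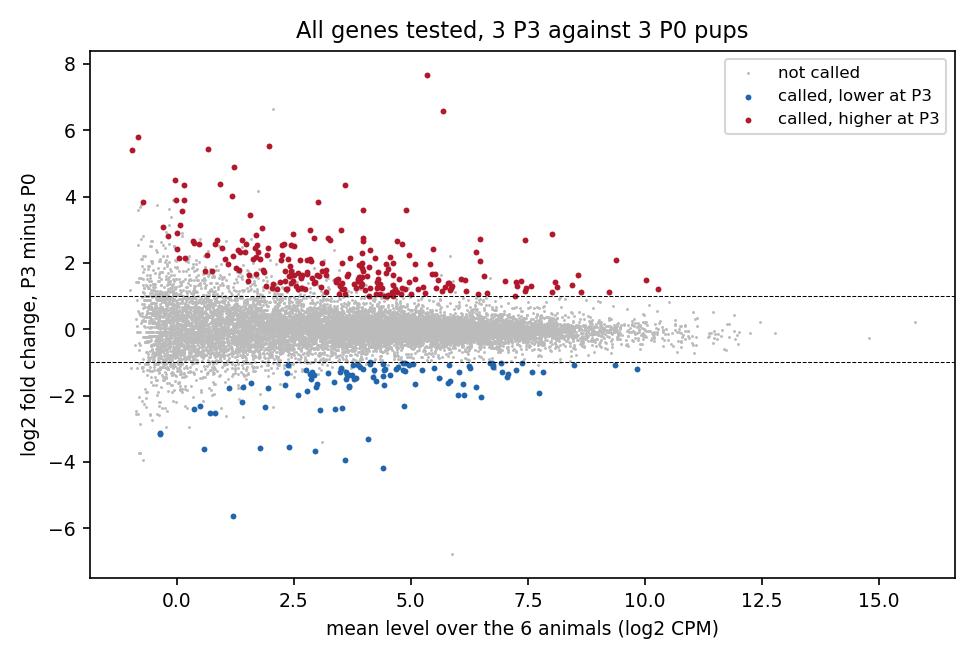
Log2 fold change of P3 over P0 (vertical axis) against the mean level over the 6 pups (horizontal axis, log2 CPM) for the 12950 genes tested; dashed lines mark a 2-fold change, red points the 235 genes called higher at P3 and blue points the 104 called lower. Red points lie at all levels, and the furthest red point (7.68) lies further from 0 than the furthest blue point (-5.63). Beyond 8-fold lie 23 of the 235 red points and 10 of the 104 blue points, a similar share.

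The rises were larger than the falls. The median log2 fold change was 1.66 among the genes that rose and -1.38 among those that fell. Of the 235 rises, 150 lay between 2-fold and 4-fold, 62 between 4-fold and 8-fold, and 23 above 8-fold. Of the 104 falls, 83 lay between 2-fold and 4-fold, 11 between 4-fold and 8-fold, and 10 above 8-fold. Rises made up 2.23% of the genes tested with a mean of 1 to 10 CPM, 2.00% of those at 10 to 100 CPM and 1.28% of those above 100 CPM. Falls made up 0.600%, 1.08% and 0.851% of the same classes, so the share of genes that rose was highest at 1 to 10 CPM and the share that fell at 10 to 100 CPM. The changes were changes of level and hardly ever of presence. No gene went from 0 counts in every P0 pup to at least 10 counts in every P3 pup, and none the other way. Only 2 of the genes that rose had 0 counts in all P0 pups.

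The 3 P3 pups carried the change alike. The genes that rose took 0.637%, 0.619% and 0.652% of all counts in P0 animals 4, 1 and 3, and 2.12%, 1.81% and 2.10% in P3 animals 1, 2 and 3. The genes that fell took 0.872%, 0.847% and 1.01% in the same P0 animals and 0.395%, 0.345% and 0.366% in the P3 animals. Relative to the P0 mean, the median log2 level of the genes that rose was 1.60, 1.59 and 1.68 in P3 animals 1, 2 and 3. That of the genes that fell was -1.35, -1.52 and -1.30. These sums and medians run over genes chosen on the same libraries and describe them without testing them.

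The largest rise by the rule used for naming genes was that of ENSOCUG00000017744. It was at 3.48, 3.99 and 1.80 CPM in P0 animals 1, 3 and 4, and at 599, 391 and 922 CPM in P3 animals 1, 2 and 3. The lowest P3 pup was thus far above the highest P0 pup. The log2 fold change was 7.68 ± 0.40 (SE, n = 3 per group), with an adjusted p of 0.000212 in edgeR's quasi-likelihood test. In rank, the gene moved from place 9733 of the genes tested in P0 to place 229 in P3. At P7 it stood at 683 and 789 CPM in the run 2 animals and at 902 CPM in the run 3 animal, in the range of the P3 pups. In pups of term birth it stayed low, at 0 to 3.45 CPM at T31 (6 animals), 1.07 to 5.09 CPM at T35 (7 libraries of 3 animals), 2.50 to 12.5 CPM at T37 (4 animals) and 0.801 to 1.17 CPM at T42 (3 animals). No library outside P3 and P7 therefore came near the P3 values.

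The next largest rise, that of ENSOCUG00000002424, was uneven among the P3 pups. P0 animals 1, 3 and 4 stood at 9.99, 7.05 and 6.90 CPM, close to each other. P3 animal 1 stood at 51.8 CPM, animal 2 at 626 CPM and animal 3 at 1624 CPM. All 3 were above all P0 pups, but they spanned a wider range among themselves than separates the lowest of them from the P0 pups. The log2 fold change was 6.58 ± 1.10 (SE, n = 3 per group) with an adjusted p of 0.0115 in edgeR's quasi-likelihood test, and limma-voom, which weighs the spread otherwise, gave 5.57 with an adjusted p of 0.181. The P7 pups were as uneven, at 178 and 1796 CPM in run 2 and 2796 CPM in run 3. Term pups showed 0.845 to 7.19 CPM at T31, 5.84 to 38.0 CPM at T35 and 38.9 to 50.4 CPM at T42, so the highest of them lay just below the lowest P3 pup.

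Of the falls, ENSOCUG00000028083 had the largest. It was at 8.63, 18.4 and 11.4 CPM in P0 animals 1, 3 and 4, and 4, 1 and 0 counts were left in P3 animals 1, 2 and 3 (0.594, 0.143 and 0 CPM). The log2 fold change was -5.63 ± 0.63 (SE, n = 3 per group), with an adjusted p of 0.00219 in edgeR's quasi-likelihood test; its size rests on a handful of counts at P3. The gene had its highest levels around the end of gestation, at 7.81 to 51.0 CPM at F28 (7 libraries of 3 animals), 12.5 to 31.6 CPM at F29 and 3.03 to 51.2 CPM at T31. It was low before, at 0.132 to 0.968 CPM at F20, and low again after a birth of either kind, at 0.282 to 0.891 CPM at P7 and 0 to 1.85 CPM at T35.

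ENSOCUG00000013068 behaved alike at a higher level. P0 animals 1, 3 and 4 stood at 69.9, 125 and 103 CPM, and P3 animals 1, 2 and 3 at 3.41, 5.58 and 7.19 CPM. The log2 fold change was -4.20 ± 0.30 (SE, n = 3 per group), with an adjusted p of 0.000435 in edgeR's quasi-likelihood test. It rose through gestation from 4.66 to 18.3 CPM at F20 to 414 to 734 CPM at F29, was still at 34.6 to 747 CPM at T31, and had left that range by T35 (0 to 20.5 CPM in 7 libraries) and P7 (2.68 to 7.29 CPM). Both genes were thus higher in T31 pups, which had just been born, than in P3 pups of the same age since conception, read in another run. Neither was called in the test of the difference from the change between F28 and T31, described below. That difference was -5.64 for ENSOCUG00000028083 (adjusted p 0.0722, edgeR's quasi-likelihood test) and -4.30 for ENSOCUG00000013068 (adjusted p 0.215, same test).

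**Figure D2:**
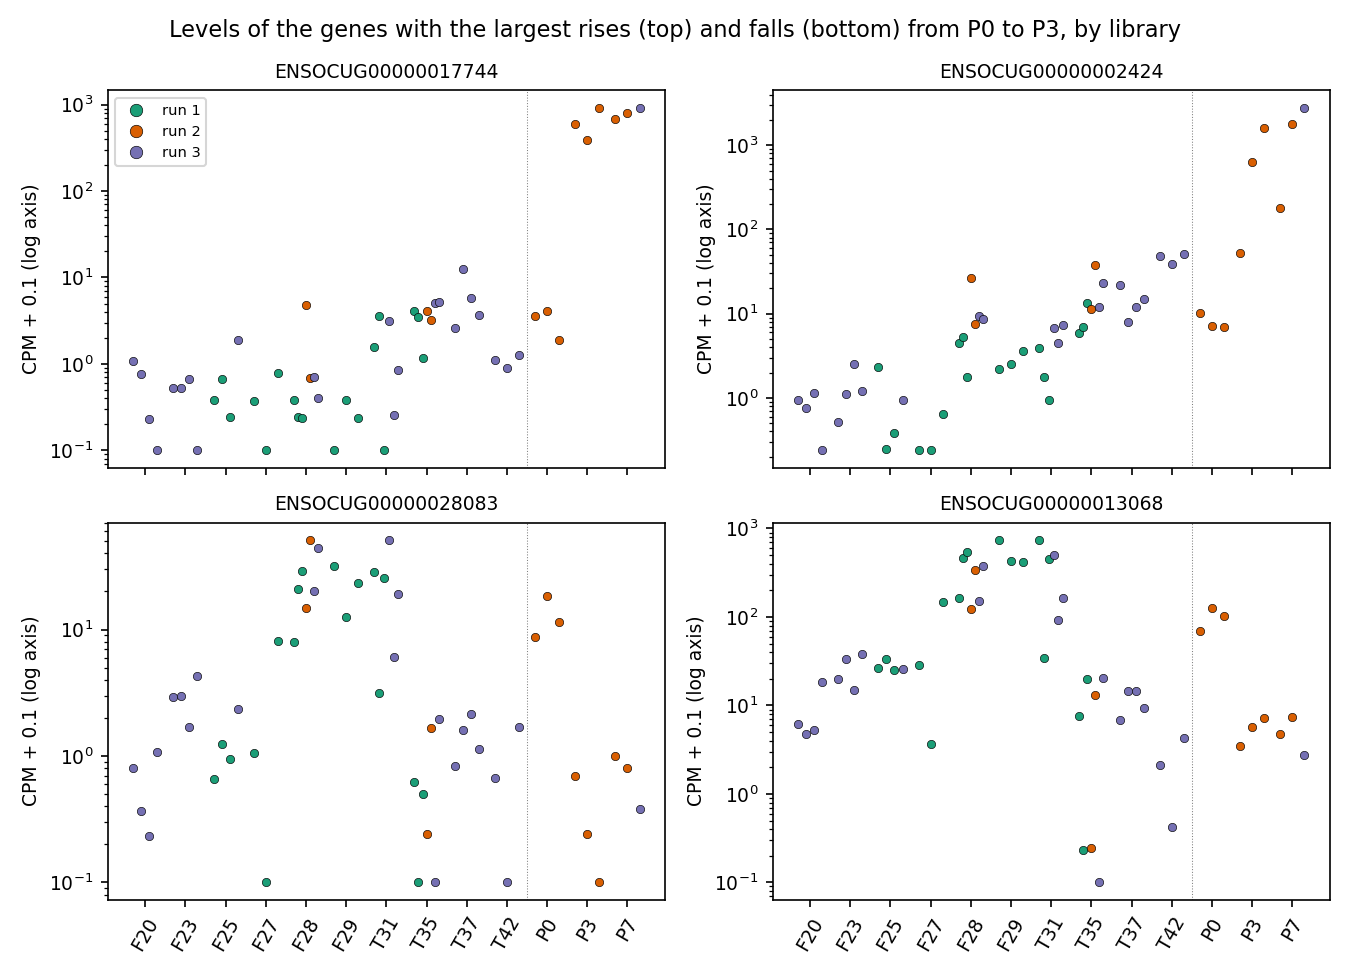
Level of 4 genes in each of the 54 libraries (CPM + 0.1, log axis), by group from F20 to T42 and, right of the dotted line, in preterm pups; each point is a library, coloured by sequencing run, and some animals have a point in more than 1 run. The upper genes are at 391 to 922 and 51.8 to 1624 CPM in P3 and lower in all fetal and term groups, while the lower genes peak around birth and are low in P3, P7 and T35 alike.

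Whether the genes that rose or fell also did so in other animals was read from comparisons that share no animal with P3 or P0. The same ages, from 28 to 31 days, were compared in pups that stayed in the womb until term birth (T31 against F28, 3 against 3, run 1). There the genes that had risen after preterm delivery had a median log2 difference of 0.904. Of the 235, 210 were higher at T31 (89.4%, against 49.9% of all genes), 100 by over 2-fold and none lower by over 2-fold. In that comparison 0.820% of all genes were called higher, and 30 of the 235 were, with none called lower. Taken animal by animal, the median of the 235 genes was between 0.473 and 1.19 above the F28 mean. The course from F28 to T31 thus had the direction of the preterm rise for most of these genes, with a median below the 1.66 of the libraries on which they were chosen. T31 lungs were taken right after natural birth, so the days in the womb and the term birth itself cannot be told apart.

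The genes that had fallen were less uniform from F28 to T31. Their median log2 difference from F28 to T31 was -0.663, and 76 of the 104 were lower at T31 (73.1%, against 50.1% of all genes). The difference was over 2-fold downward for 38 and over 2-fold upward for 12. Of the 104, 20 were called lower, where 0.549% of all genes were, and 7 were called higher.

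Pups 7 days after preterm delivery held most of the rises. Between F28 and P7 (2 against 2 animals, run 2), the 235 genes had a median log2 difference of 2.44, and 229 were higher (97.4%, against 48.1% of all genes). Of them, 177 (75.3%) were called higher and none lower, where 3.71% of all genes were called and 2.89% were called higher. The same libraries of F28 set against T35 pups of run 2 gave a median of 1.37 and 125 genes called higher (53.2%), where 3.42% of all genes were called and 2.36% were called higher. The genes that fell had medians of -0.461 at P7 and -0.330 at T35 relative to F28, with 25 and 24 called lower, where 0.819% and 1.05% of all genes were. Both medians lie nearer to 0 than the -1.38 of the libraries on which these genes were chosen. Only 6 genes were called between P7 and P3 directly (5 higher and 1 lower at P7, with 1326 at an unadjusted p below 0.05 in edgeR's quasi-likelihood test), with the P3 pups common to both comparisons.

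**Figure D3:**
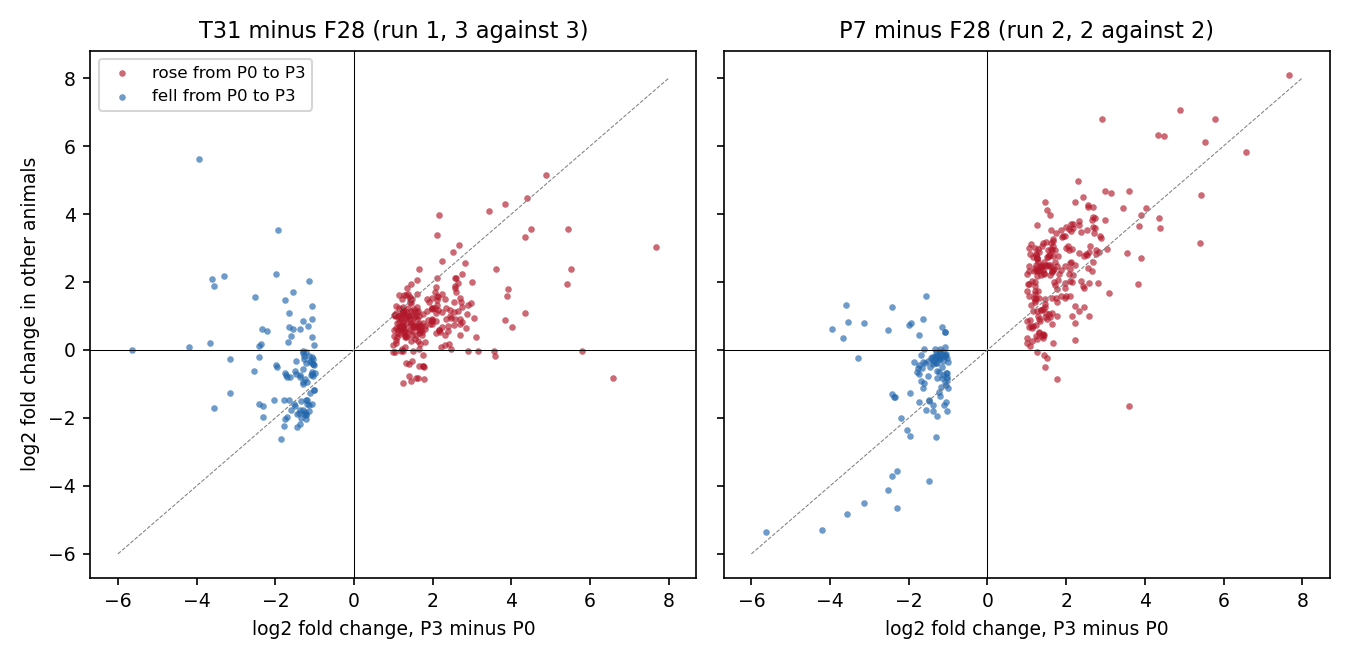
Log2 fold change of the 339 called genes from P0 to P3 (horizontal axes) against their log2 fold change from F28 to T31 (left) and from F28 to P7 (right) in animals that the first comparison does not include; each point is a gene, red for those that rose and blue for those that fell, and the dashed line marks equal change. Red points lie above 0 for 210 of 235 genes on the left and 229 of 235 on the right, while blue points spread to both sides of 0 on the left.

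The first days after a birth at term gave a second yardstick. Between T31 and T35 (3 against 3, run 1), which spans 4 days of air breathing where P3 spans 3, the genes that had risen in preterm pups had a median log2 difference of 0.597 and 178 of 235 were higher (75.7%, against 48.9% of all genes). Of them, 16 were called higher, where 0.980% of all genes were, and none lower. The genes that had fallen went both ways: 26 of the 104 were over 2-fold lower at T35 and 31 over 2-fold higher, with an interquartile range from -1.01 to 1.69. By the test, 8 were called lower, where 0.382% of all genes were, and 27 were called higher.

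The genes that fell were divided along this line, after their values had been seen and with no test, to describe what each portion did elsewhere. The 31 genes that were over 2-fold higher at T35 had high levels early in gestation. Their median log2 CPM was 7.01 to 7.17 in the F20 pups, 6.86 to 6.98 at F23, 4.23 to 5.32 at F28 and 3.57 to 4.03 at F29. It was 2.31 to 3.60 in the 6 T31 pups. In the preterm pups it went from 4.48, 4.77 and 4.42 in P0 animals 1, 3 and 4 to 3.25, 3.15 and 3.34 in P3 animals 1, 2 and 3. Low levels at P3 and in the T31 libraries of run 1 were part of how these 31 genes were chosen, and P3 and T31 were read in different runs, so no more than the values can be read from their likeness.

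After term birth the level of these 31 genes parted between animals. At T35, animal 1 stood at 5.62 (run 1), animal 6 at 5.07, 5.51 and 5.57 in runs 1, 2 and 3, and animal 11 at 3.17, 3.54 and 3.66. Repeat libraries of an animal lay within a narrower range than the animals did. At T37 animal 27 stood at 3.95 and the others at 5.30 to 5.96, and at T42 the 3 animals stood at 3.86, 4.73 and 5.06. The P7 pups were spread in the same way, at 4.14 and 5.05 in run 2 and 2.98 in run 3, whereas the 3 P3 pups differed by little.

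The 26 genes that were over 2-fold lower at T35 than at T31 followed another course. Their median log2 CPM was 3.69, 4.53 and 4.02 in P0 animals 1, 3 and 4, matched elsewhere by T31 animal 1 (4.09) and F29 animal 7 (3.69), and 2.37, 1.98 and 2.23 in P3 animals 1, 2 and 3. In fetal life it was 1.40 to 2.49 at F20, 2.48 to 3.55 at F28 and 2.45 to 3.69 at F29, and in T31 pups 2.23 to 4.09. The F28 libraries read in run 2, as P0 was, stood at 2.48 and 3.55, below each P0 pup. The fall from P0 to P3 thus started from a level above that of F28, and high levels at P0 were part of how these genes were chosen. The median of the set was low after either birth, at 0.77 to 1.92 at T35 and 1.65 to 2.41 at P7. High T31 and low T35 levels in run 1 were also part of how these genes were chosen. ENSOCUG00000028083 and ENSOCUG00000013068 belong to this set, but their P0 levels did not stand above F28 as the median of the set did. In run 2, ENSOCUG00000028083 was at 14.8 and 51.0 CPM at F28 and at 8.63 to 18.4 CPM at P0. ENSOCUG00000013068 was at 122 and 342 CPM at F28 and at 69.9 to 125 CPM at P0. The remaining 47 genes, within 2-fold between T31 and T35, had medians of -1.24 from P0 to P3, -0.36 from F28 to T31 and -0.82 from F28 to P7 on the log2 scale.

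The 235 genes that rose had a median log2 CPM of 1.10 to 2.26 at F20, 2.00 to 2.88 at F28, 2.73 to 3.67 at T31, 3.70 to 4.10 at T35 and 4.41 to 4.51 at T42. In preterm pups it was 2.70, 2.58 and 2.84 in P0 animals 1, 3 and 4, 4.41, 4.35 and 4.50 in P3 animals 1, 2 and 3, and 4.83, 5.05 and 5.17 at P7. P3 pups, 31 days after conception, thus stood at the level of T42 pups, and P7 pups stood above all term pups. P3 belongs to run 2 while T31 and T42 were read in other runs, and repeat libraries show what a run can add: F28 animal 2 stood at 2.35, 2.82 and 2.85 in runs 1, 2 and 3, and T35 animal 6 at 3.70, 3.96 and 4.02. The P3 level also helped choose these genes.

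**Figure D4:**
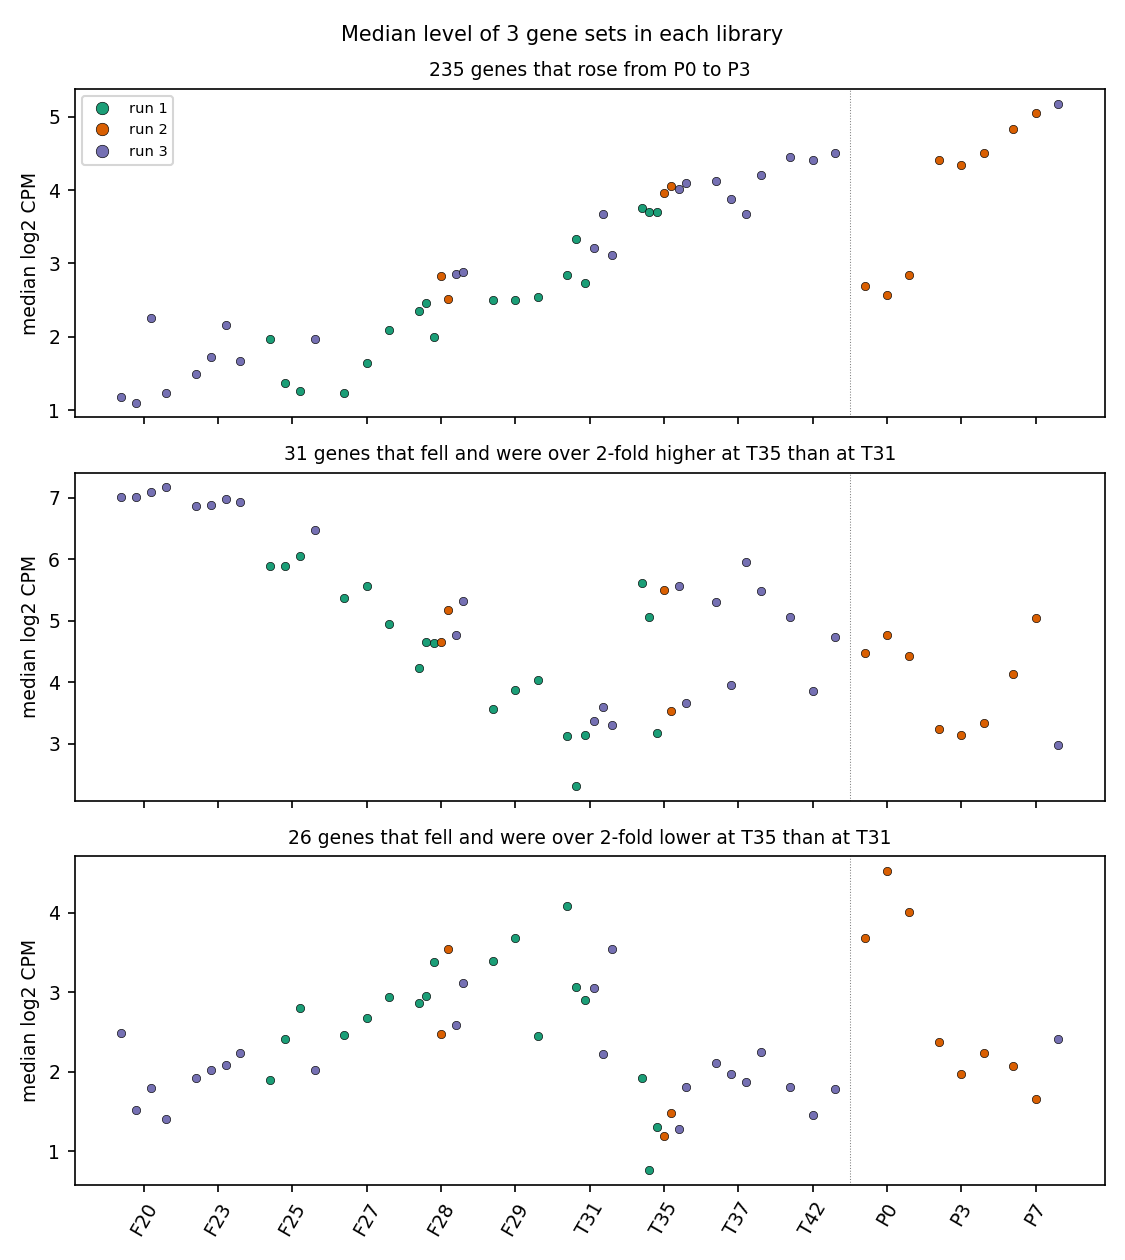
Median log2 CPM of 3 sets of genes in each library (points, coloured by sequencing run), by group from F20 to T42 and, right of the dotted line, in preterm pups: the 235 genes that rose from P0 to P3 (top), the 31 that fell and were over 2-fold higher at T35 than at T31 (middle), and the 26 that fell and were over 2-fold lower at T35 (bottom). The top set climbs from 1.10 at F20 to 5.17 at P7, the middle set falls from 7.17 at F20 and parts between animals from T35 on, and the bottom set is high in P0 pups, at 3.69 to 4.53.

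A test of the difference asked which genes changed unlike the course from F28 to T31, in the womb and through term birth, over the same ages. The fit held 15 libraries (P0 and P3 of run 2, and F28, T31 and T35 of run 1, 3 each). A gene was called at a difference above 2-fold and an adjusted p of at most 0.05 in edgeR's quasi-likelihood test. The change from P0 to P3 differed from that from F28 to T31 for 35 of 14382 genes (0.243%). By adjusted p alone it was 38, and 1555 had an unadjusted p below 0.05. For 33 of the 35 (0.229% of the genes tested) the preterm change was the lower one. All 33 went down from P0 to P3 and up from F28 to T31, with medians of -0.822 and 1.08 on the log2 scale. Of them, 20 were called higher at T31 than at F28, where 0.820% of all genes were. The genes were chosen on these same changes, so the signs and counts describe them without testing them. The compared changes start unlike: P0 lungs were taken 1 h after delivery and F28 lungs at once, while T31 lungs were taken right after birth. In run 2, 30 of 13791 genes were called between P0 and F28, 25 of them higher at P0. Whether the 33 are genes raised around a birth of either kind was not tested. Of these 33 genes, 11 were among the 104 that fell. The preterm change was the higher one for 2 genes (0.0139%), of which 1 was among the 235 that rose: ENSOCUG00000002424, which differed by 7.38 ± 1.36 (SE) with an adjusted p of 0.0369. This call was lost in 10 of the 12 fits that left out an animal, with limma-voom (adjusted p 0.489) and with the run 3 libraries of T31 added (0.0590). In the last of these no other group has run 3 libraries, so the run term takes up the added ones. The T31 level there still rests on the run 1 animals, and the difference stayed at 7.38. With the animal number as a block the difference was 3.19, but T31 then rests on animal 1 alone and F28 on animal 2. The list hung on single animals, and leaving out any animal but P0 animal 1 moved its length by over 1.5 times. It held 2 genes without F28 animal 7, 3 without P3 animal 1, 61 without T31 animal 10 and 101 without T31 animal 15. Adding the run 3 libraries of T31, which enter the spread there but not the T31 level, left 1 gene.

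**Figure D5:**
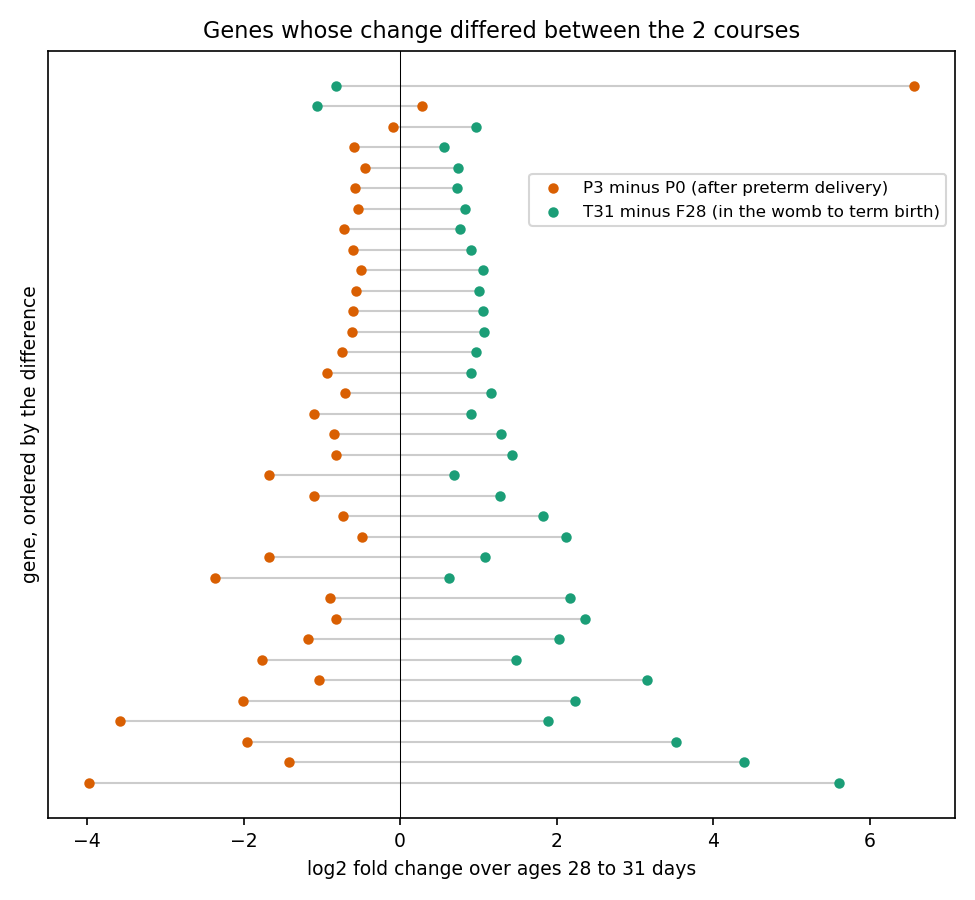
Log2 fold changes over ages 28 to 31 days for the 35 genes whose change differed between preterm pups (P3 minus P0, orange) and pups in the womb until term birth (T31 minus F28, green); each row is a gene and the grey line joins its values. In 33 rows the orange point lies below 0 and the green point above it.

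Set against the first days after term birth, 85 genes (0.591%) changed differently by the same test and thresholds. By adjusted p alone it was 96, and 1662 had an unadjusted p below 0.05. For 64 (0.445%) the preterm change was the lower one, and all 64 went down from P0 to P3 and up from T31 to T35, with medians of -1.16 and 2.00 on the log2 scale. Of these, 51 were called higher at T35 than at T31, where 0.980% of all genes were, and 31 were among the 104 genes that fell. Both changes entered the choice of the 64 genes, so the signs and counts describe them without testing them. For 21 (0.146%) the preterm change was the higher one, with medians of 1.43 and -0.71, and 13 of them were among the 235 that rose. ENSOCUG00000017744 was 1 of these, its log2 change being larger in preterm pups by 6.90 ± 0.94 (SE) with an adjusted p of 0.00970. Its difference from the change between F28 and T31 was 4.64 with an adjusted p of 0.450 by the same test. This list also hung on single animals, each of the 12 moving its length by over 1.5 times when left out, with 0 genes without T31 animal 10, 4 without T35 animal 6, 280 without T31 animal 15 and 0 by limma-voom, where 1627 genes had an unadjusted p below 0.05. The balance of lower over higher changes was lost with some of them: without P3 animal 1 it was 7 higher and 7 lower, without P3 animal 2 it was 5 higher and 4 lower, and without T35 animal 6 it was 2 of each. For the 31 genes described above, the median difference from T31 to T35 without T31 animal 10 was 1.90 in place of 2.12, and 30 stayed over 2-fold higher. These genes were chosen by that difference in these libraries, so this does not test it. In run 1, T35 animal 11 stood at a median log2 CPM of 3.17, near T31 animals 1 and 15 (3.13 and 3.15). T35 animals 1 and 6 stood at 5.62 and 5.07.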

How the data were processed

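Gene counts of 54 lung libraries from 45 rabbits were taken as deposited. According to the study's methods and the submitters' processing notes, the authors trimmed adapters with BBduk, aligned reads to the rabbit genome OryCun2.0 with STAR and counted reads per Ensembl gene with HTSeq. Versions are not given in the sources used here, nor whether the counts include the authors' extended 3′ ends. Genes reaching 0.5 CPM in 3 or more libraries of a fit were tested with edgeR 4.0.16 (quasi-likelihood, TMM) in R 4.3.3, with Benjamini-Hochberg adjustment over all genes tested. Standard errors are the fold change divided by the square root of F. Log2 CPM levels use a prior count of 2. DESeq2 1.42.0 and limma-voom (limma 3.58.1) served as alternatives, and the fits were tested on simulated data. Figures were drawn with matplotlib 3.10.9.

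Genes were named among those called whose groups did not overlap and whose mean was at least 5 CPM in the higher group, by size of change. The rule also asked for a symbol. As 0 of 29587 identifiers matched, that condition was dropped, the names were cut to 2 rises of 205 and 2 falls of 95, and the planned gene lists, marker checks and promoter motifs could not be run. Comparisons and lists were chosen with earlier results of these data known. Replicates are separate animals, and with 3 per group, p-values rest on the spread between these few. Runs differ between the preterm and the term groups, so differences were tested only as contrasts in which each subtraction lies within a run.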

Additional observations from a re-analysis of the deposited data

Results flagged for a closer look

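The changes from P0 to P3 differed from those from F28 to T31 for 35 genes, and from those from T31 to T35 for 85 genes, by a test of the difference itself (edgeR's quasi-likelihood test, adjusted p and a difference above 2-fold). Among the named genes, ENSOCUG00000002424 rose more in preterm pups than from F28 to T31, by 7.38 ± 1.36 (SE) on the log2 scale with an adjusted p of 0.0369. For both named rises every P3 pup lay above every P0 pup, as the rule for naming genes required, so this adds nothing to the tests. The call of ENSOCUG00000002424 was lost in 10 of 12 fits that left out an animal and with limma-voom. It was also lost with the run 3 libraries of T31 added, which entered the spread but not the T31 level. ENSOCUG00000017744 rose more than over the first days after term birth, by 6.90 ± 0.94 (SE) with an adjusted p of 0.00970 by the same test. This call was lost without T31 animal 10 and with limma-voom. In each of these tests the preterm libraries belong to run 2 and the others to run 1, with each subtraction inside a run.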

How the results depend on the processing

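The count of 339 genes between P3 and P0 was 296 to 429 under other scalings, other filters, DESeq2, limma-voom (306) and all libraries of run 2. It was 176 (85.8% of them higher) in the fit of 21 animals with the run as a term, of which 167 were shared, and 615 (55.8% higher) by adjusted p alone. Without each animal in turn it was 224 to 315, with 224 without P3 replicate 2. The 35 genes that differed from the change between F28 and T31 became 13 with limma-voom (1469 at an unadjusted p below 0.05), 99 with no filter, 1 with run 3 libraries of T31 added, and 2 to 101 without each animal in turn. The added run 3 libraries entered the spread but not the T31 level, which still rested on the run 1 animals. The 85 genes that differed from the days after term birth became 0 with limma-voom, 184 with no filter, and 0 to 280 without each animal in turn. Its split of 21 higher and 64 lower turned to 5 and 4 without P3 replicate 2 and was even (7 and 7) without P3 replicate 1. No fold change of a named gene and no median changed its sign under the alternatives run; the cause of the changes in count was not tested. The difference of ENSOCUG00000002424 lost its call in 10 of 12 fits without an animal (adjusted p 0.000777 to 0.125 by edgeR's quasi-likelihood test) with limma-voom (0.489) and with run 3 libraries of T31 added (0.0590). That of ENSOCUG00000017744 lost it without T31 replicate 10 (adjusted p 0.0954) and with limma-voom (0.115). Of the 32 values of the medians in other animals, chosen for recalculation after seeing the data, all kept their sign. Alternatives for gene lists were not run, for want of symbols, and ENSOCUG00000028083 has no value with at least 10 counts in every library.

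P0 and P3 share the animal numbers 1 and 3, which mark no common dam or day in the labels. The deviations of these pairs correlated at 0.096 and 0.001, within the range of all 9 pairs (-0.108 to 0.110). With the number as a replicate block, 340 genes were called between P3 and P0, 246 of them shared with the fit without it, and the difference tests gave 107 (8 shared) and 438 (68 shared). With the block the difference of ENSOCUG00000002424 from the change between F28 and T31 was 3.19, which for the same reason cannot decide whether its call holds.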

Other observations

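In the libraries of P0 and P3, the genes with the widest spread inside a group were present in some animals and nearly absent from others. They were picked after their values were seen, and neither was called between P3 and P0. ENSOCUG00000025724 had 483 CPM in P3 animal 2 and 1.78 and 0.987 CPM in P3 animals 1 and 3, and 1.07 to 2.27 CPM in the P0 pups (log2 fold change 6.64 ± 2.15 (SE), adjusted p 0.125 by edgeR's quasi-likelihood test). Over the whole series 8 of 45 animals had it above 20 CPM, at 215 to 877 CPM, and the other libraries were all under 5 CPM. The animals that had it came from P3, F28, F29, T31, T35, T37 and T42. ENSOCUG00000029108 had 1.38 CPM in P0 animal 3 but 687 and 1070 CPM in P0 animals 4 and 1, and 919 to 964 CPM in the P3 pups (log2 fold change 0.68 ± 1.18 (SE), adjusted p 0.811 by the same test). It exceeded 20 CPM in 23 of 45 animals and was at most 5.74 CPM in the others. In the animals above that level it was 82.6 to 194 CPM in run 1 libraries and 388 to 1143 CPM in libraries of runs 2 and 3. For both genes, no animal among the 6 with repeat libraries had libraries on both sides of 20 CPM.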
